A study of Mus musculus with 12 samples.

Results

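The 9 genes described here encode cell cycle inhibitors and pocket proteins: the Cip/Kip inhibitors Cdkn1a, Cdkn1b and Cdkn1c, the Ink4 inhibitors Cdkn2c and Cdkn2d, the pocket proteins Rb1, Rbl1 and Rbl2, and the growth arrest gene Gadd45a. They were named as a group and found on the array through the RefSeq accession of each probe. They matched 12 probes, with Cdkn1a, Cdkn1c and Rbl1 on 2 probes each, among 19259 named genes on the array. RNA came from C2C12, an immortalised mouse myoblast line, with no genetic change or added compound named in the labels. Proliferating cells were grown in 10% fetal bovine serum until 80% to 90% confluent, and the other 3 groups were then moved to 2% horse serum and collected after 2, 5 or 8 days. Each of the 4 stages has 3 arrays from experiments that the labels call independent, hybridised with Cy3-labelled RNA on a one-colour Agilent array.

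Myoblasts leave the cell cycle before they fuse into myotubes. Cyclin-dependent kinases (CDKs) with their cyclins phosphorylate the pocket proteins, which otherwise bind E2F transcription factors and hold back the genes of DNA replication. Ink4 proteins block the kinases that pair with D-type cyclins, and Cip/Kip proteins bind a wider range of cyclin and kinase complexes. In muscle, the MyoD family is known to switch on Cdkn1a, and the retinoblastoma protein keeps myotubes from re-entering the cycle. A culture dish after serum withdrawal also holds cells that did not fuse, so in these whole-culture RNA samples fewer cells of a kind and less RNA per cell cannot be told apart.

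All 12 probes were well above background on all 12 arrays by the scanner's flag, so none of the 9 genes was lost to a filter on dim signals. Signals are given as scaled signal, the array's intensity divided by its own 75th percentile and multiplied by 1000, in the order of replicates 1 to 3. Differences are on the log2 scale with their standard error from limma, and a gene is said to have risen or fallen where its Benjamini-Hochberg adjusted p over the 22960 probes tested was under 0.05. Each probe is 1 spot per array, and signals of different probes are not compared as levels. The scanner flagged the spots of Cdkn1a, Cdkn1b, Cdkn2d, Rbl2 and Gadd45a as non-uniform on 10 to 12 of the 12 arrays. These spots were kept. The 75th percentile lay between 1295 and 1993 intensity units, and 56.9% to 69.5% of the spots of an array were well above background. Of 9 skeletal muscle markers 8 or 9 were above background on every array, and Myog and Myh3 were higher at day 8 than at proliferation by 6.10 and 8.44. Of the 9, all tested, 6 rose and 1 fell at day 2. At day 5, 8 rose and 1 fell, and at day 8, 6 rose and 1 fell. The summed scaled signal of these markers ran from 95330 to 121500 at proliferation and from 100600 to 125200 at day 2. It ran from 558400 to 632400 at day 5 and from 361500 to 470500 at day 8. Of 6 macrophage markers 2 to 4 were above background, with sums of 1350 to 1637 at proliferation and 818.9 to 946.7 at day 8; of the 3 tested, Csf1r and Aif1 rose by day 8 and Cd14 fell. Of 4 endothelial markers 1 to 4 were above background. Their sums were 221.6 to 303.1 at proliferation, 814.6 to 1100 at day 2 and 497.6 to 638.6 at day 8. Of the 4, all tested, 1 rose and 1 fell at day 2, and 1 rose and 2 fell at day 8. Of 4 neural markers 3 or 4 were above background. Their sums were 20980 to 32190 at proliferation, 42890 to 52970 at day 2 and 14990 to 16510 at day 8. Of the 3 tested, 2 rose and none fell at day 2, and 1 rose and 1 fell at day 8. Of 4 adipocyte markers 1 or 2 were above background, with sums of 3986 to 5230 at proliferation and 1418 to 1665 at day 5 and day 8. Of 5 osteoblast markers 4 or 5 were above background, with sums of 6621 to 11270. The part of these markers in the results below was not tested.

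The arrays lay on 3 slides: the proliferation arrays with day 2 replicate 1, day 2 replicates 2 and 3 with day 5 replicates 1 and 2, and day 5 replicate 3 with the day 8 arrays. No slide held both proliferation and day 5 or day 8. The difference of these stages with slide as a block is therefore the sum of differences measured within slides, and is given below where it changed a call. With the block, every difference from proliferation rests on day 2 replicate 1. At day 8 it rests on day 5 replicate 3 as well.

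Against proliferation, 4 of the 9 genes rose at day 2 and none fell, beside 30.6% of all probes called in that comparison (18.3% higher, 12.3% lower). At day 5, 4 rose and 2 fell, beside 47.5% of all probes (23.7% higher, 23.9% lower). At day 8, 5 rose and 2 fell, beside 54.9% (25.3% higher, 29.6% lower). The median difference of the 9 genes was 0.47, 0.35 and 0.87 at days 2, 5 and 8, against 0.07, -0.02 and -0.12 over all probes tested. These 3 comparisons share the proliferation arrays and are not independent of each other. The counts with slide as a block were 2, 4 and 3. In that fit 2236 of the 22960 probes were called higher and 1314 lower at day 2. At day 5 these numbers were 2884 and 2333, and at day 8 they were 2258 and 1735. They are also the background for the counts of the lists below with slide as a block. Across the 4 stages 8 of the 9 genes differed by limma's F test, beside 65.8% of all probes, and Cdkn1b did not (adjusted p = 0.976).

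**Figure D1:**
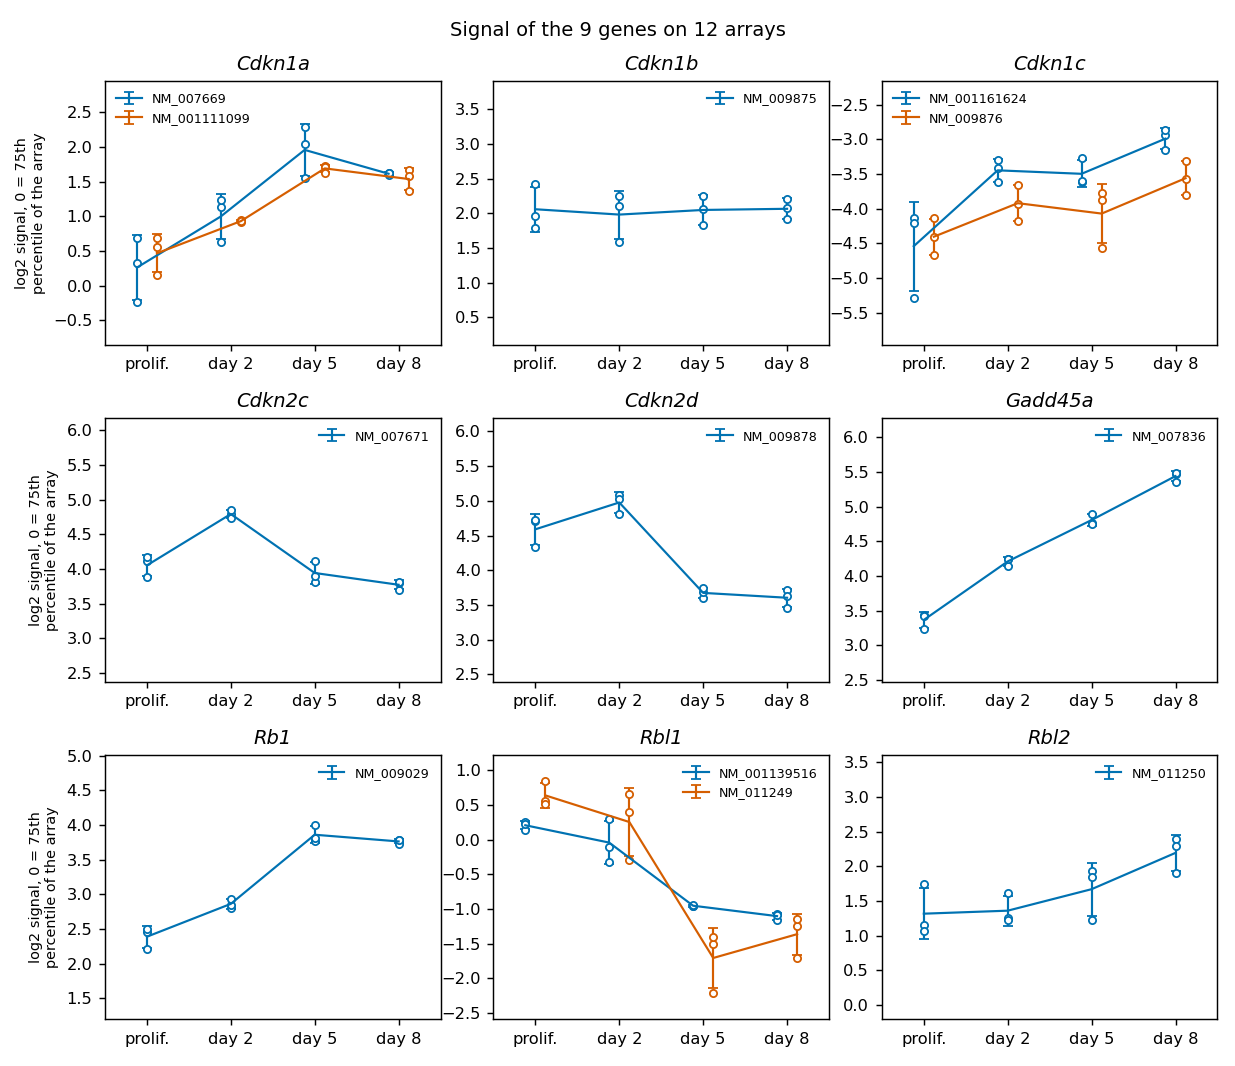
Log2 signal of each gene by stage, with 0 at the array's 75th percentile. Circles are single arrays, lines join stage means, bars are 1 SD (n = 3), and both probes are drawn where a gene has 2; every panel spans the same log2 range. Gadd45a climbs at each stage, Rb1 and Rbl1 move in opposite directions between day 2 and day 5, Cdkn2c peaks at day 2, and the stages of Cdkn1b overlap.

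Cdkn1a encodes p21, the inhibitor most closely tied to cell cycle exit in myoblasts. Its brighter probe (NM_007669) gave scaled signals of 855, 1248 and 1615 at proliferation and 2183, 2341 and 1545 at day 2. They were 2925, 4847 and 4100 at day 5 and 3014, 3087 and 3082 at day 8. Day 2 overlapped proliferation, because its replicate 3 lay below the highest proliferation array, while every array of day 5 and day 8 lay above all earlier ones. The difference from proliferation was 0.73 ± 0.26 at day 2, which missed the threshold (adjusted p = 0.052) but passed after normexp background correction (0.94, adjusted p = 0.0154). It was 1.69 ± 0.26 at day 5, or 3.23-fold (adjusted p = 0.000284), and 1.35 ± 0.26 at day 8, or 2.55-fold (adjusted p = 0.00114). Cdkn1a also rose from day 2 to day 5, by 0.96 ± 0.26 (adjusted p = 0.0157), a call lost without day 2 replicate 3 (adjusted p = 0.0657), day 5 replicate 2 (0.0601) or day 5 replicate 3 (0.0556). From day 5 to day 8 the difference was -0.34, with a 95% interval from -0.91 to 0.23, so the peak at day 5 was not separated from day 8.

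The other Cdkn1a probe (NM_001111099) had a smaller spread between replicates. Its signals were 1118, 1470 and 1599 at proliferation, 1914, 1895 and 1903 at day 2, 3312, 3273 and 3086 at day 5, and 2566, 3193 and 2993 at day 8. On this probe no day 2 array overlapped proliferation, and the difference of 0.46 ± 0.15 passed the threshold (adjusted p = 0.0365; 0.188 with slide as a block). The differences at day 5 and day 8 were 1.22 ± 0.15 and 1.07 ± 0.15 (adjusted p = 5.61e-05 and 0.000127), and with slide as a block day 5 held (1.27, adjusted p = 0.0162) and day 8 did not (1.18, adjusted p = 0.0644). Both probes thus ranked the stages alike, from proliferation through day 2 and day 8 to day 5. With slide as a block, the brighter probe kept its call at day 5 (1.85, adjusted p = 0.0304) and lost it at day 8 (1.43, adjusted p = 0.17).

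RefSeq lists 2 starts for Cdkn1a on the plus strand of GRCm38.p6, and the 250 bases before each are shown because p21 is the textbook target of p53 and of Sp1 at this gene. Capitals mark matches to the p53 decamer, the unit that is repeated in a full p53 site, before the upstream start and to GGGCGG, the GC box bound by Sp1, before the downstream one. Both strands were searched.
Cdkn1a upstream start, chr17:29090729-29090978: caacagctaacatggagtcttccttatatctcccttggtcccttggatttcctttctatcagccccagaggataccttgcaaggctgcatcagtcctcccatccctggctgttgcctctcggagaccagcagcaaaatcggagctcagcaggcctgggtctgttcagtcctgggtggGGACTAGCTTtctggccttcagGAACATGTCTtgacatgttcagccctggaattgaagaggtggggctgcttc
Cdkn1a downstream start, chr17:29093519-29093768: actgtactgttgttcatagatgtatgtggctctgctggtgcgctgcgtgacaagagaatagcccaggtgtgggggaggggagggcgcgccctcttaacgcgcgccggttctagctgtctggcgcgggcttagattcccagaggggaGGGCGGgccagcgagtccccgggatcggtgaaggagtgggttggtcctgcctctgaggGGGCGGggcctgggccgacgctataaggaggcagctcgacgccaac
The decamers begin 73 and 51 bases before the upstream start, and 7.13% of the 32851 RefSeq promoter windows of this length hold one. The decamer was added to the search after this sequence had been read. The GC boxes begin 104 and 46 bases before the downstream start, and 32.7% of all windows hold one. Among the other genes described here, Cdkn2d and Gadd45a have 1 decamer each in the same window. Cdkn1b, Cdkn2c, Cdkn2d, Rbl1 and Gadd45a also have a GC box in such a window. A match is a run of letters and was not measured as a binding site, and the files do not tell which start each probe reads.

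Cdkn1b, which encodes p27, another Cip/Kip inhibitor that is known to be set largely by protein turnover, passed the threshold in none of the 5 comparisons. Its signals were 5356, 3459 and 3884 at proliferation, 4741, 3007 and 4273 at day 2, 4164, 4746 and 3547 at day 5, and 4211, 3750 and 4637 at day 8. All 4 stages overlapped. The differences from proliferation were -0.08, -0.01 and 0.01 ± 0.21 at days 2, 5 and 8. At day 8 the 95% interval ran from -0.46 to 0.48, so differences inside those bounds were not resolved by 3 arrays a stage. Its day 8 value with slide as a block was 0.74 (adjusted p = 0.34).

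Cdkn1c encodes p57, the imprinted Cip/Kip inhibitor, and had faint signals. Its brighter probe (NM_001161624) gave 25.7, 57.3 and 54.1 at proliferation, 93.6, 81.5 and 102 at day 2, 81.6, 82.3 and 103 at day 5, and 130, 112 and 137 at day 8. Proliferation replicate 1 was the lowest array, and no later array overlapped proliferation. The differences were 1.1, 1.04 and 1.55 ± 0.27 at days 2, 5 and 8 (adjusted p = 0.0116, 0.00833 and 0.000632). All 3 calls were lost with slide as a block, at 1.12, 0.97 and 1.25 (adjusted p = 0.0881, 0.227 and 0.241). The second probe (NM_009876) gave 47.0, 39.5 and 56.8 at proliferation, 78.8, 55.6 and 65.8 at day 2, 72.5, 68.4 and 42.3 at day 5, and 72, 101 and 84.1 at day 8. Only its day 8 arrays lay wholly above proliferation, by 0.84 ± 0.24 (adjusted p = 0.0111). With slide as a block this difference also passed, at 1.96 (adjusted p = 0.0137). That larger value joins within-slide steps of 0.74 to day 2, 0.22 from day 2 to day 5, and 1 from day 5 to day 8. The last step rests on day 5 replicate 3, which at 42.3 was the lowest day 5 array. At days 2 and 5 the differences of the second probe, 0.48 and 0.33, did not pass (adjusted p = 0.145 and 0.276). The probes of Cdkn1c correlated at r = 0.59 over the 12 arrays, against 0.94 for those of Cdkn1a and 0.95 for those of Rbl1, each as a description across arrays that share the stages.

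The Ink4 genes had their highest signals at day 2. Cdkn2c encodes p18, which binds the kinases CDK4 and CDK6. It gave 14705, 17314 and 18050 at proliferation, 27754, 26714 and 28803 at day 2, 14021, 17403 and 14955 at day 5, and 13036, 13969 and 14077 at day 8. The 3 day 2 arrays stood above all others, and day 5 overlapped proliferation. Cdkn2c rose by 0.74 ± 0.13 at day 2, or 1.67-fold (adjusted p = 0.00199, or 0.0385 with slide as a block). It then fell by day 5, with a difference from day 2 of -0.85 ± 0.13 (adjusted p = 0.000479, or 0.00802 with the block). Without spots that the scanner flagged as non-uniform, that difference was -0.66 and did not pass (adjusted p = 0.196). Cdkn2c had no flagged spot itself, and its call held when the percentile was taken from all spots. At day 5 and day 8 it differed from proliferation by -0.11 and -0.28, neither of which passed (adjusted p = 0.509 and 0.085). The day 8 difference passed without proliferation replicate 1, at -0.37 (adjusted p = 0.0387).

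Cdkn2d encodes p19, the other Ink4 inhibitor of this group. Its signals were 20160, 26084 and 26461 at proliferation, 33986, 32690 and 28067 at day 2, 12098, 12841 and 13393 at day 5, and 13177, 11035 and 12376 at day 8. Every day 5 and day 8 array lay below every earlier array, and day 2 did not overlap proliferation. The day 2 difference of 0.39 ± 0.14 did not pass (adjusted p = 0.0642), although it did after normexp background correction (0.53, adjusted p = 0.0159). Cdkn2d fell below proliferation at day 5, at -0.91 ± 0.14 (adjusted p = 0.000376), and at day 8, at -0.98 ± 0.14, or 1.98-fold lower (adjusted p = 0.000196). These were -0.78 and -0.92 with slide as a block and no longer passed (adjusted p = 0.0826 and 0.117). The step from day 2 to day 5 was the steepest, at -1.30 ± 0.14 or 2.47-fold lower (adjusted p = 5.43e-05), and held with the block (-1.28, adjusted p = 0.0012). Relative to proliferation at the late stages, Cdkn2d was lower and Cdkn2c did not pass, and the difference between the genes was not tested.

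The pocket proteins moved apart. Rb1, the retinoblastoma gene, gave 4628, 5515 and 5643 at proliferation, 7021, 7150 and 7686 at day 2, 13626, 15998 and 14035 at day 5, and 13761, 13223 and 13729 at day 8. Proliferation, day 2 and the 2 late stages formed 3 levels without overlap, and day 5 overlapped day 8. Rb1 rose by 0.47 ± 0.12 at day 2 (adjusted p = 0.0148; 0.42 and 0.159 with slide as a block; 0.0598 without non-uniform spots and with the percentile of all spots). It was higher by 1.47 ± 0.12 at day 5, or 2.77-fold (adjusted p = 3.32e-06), and by 1.37 ± 0.12 at day 8, or 2.59-fold (adjusted p = 4.6e-06), and both held with the block (adjusted p = 0.00384 and 0.0175). Most of the rise came between day 2 and day 5, at 1.00 ± 0.12 (adjusted p = 0.000118), and from day 5 to day 8 the difference was -0.10, with a 95% interval from -0.37 to 0.17.

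Rbl1 encodes p107, the pocket protein that is most abundant in cycling cells. Its brighter probe (NM_001139516) gave 1188, 1105 and 1173 at proliferation, 802, 1220 and 935 at day 2, 514, 514 and 520 at day 5, and 477, 447 and 472 at day 8. Day 2 straddled the proliferation arrays, with replicate 2 above all of them, while all late arrays lay below both. The day 2 difference of -0.25 ± 0.15 did not pass (adjusted p = 0.223), but did without day 2 replicate 2, at -0.42 (adjusted p = 0.0404). Rbl1 fell by day 5, at -1.16 ± 0.15 or 2.24-fold lower (adjusted p = 7.82e-05), and was at -1.31 ± 0.15 at day 8, or 2.48-fold lower (adjusted p = 2.72e-05). The values were larger with slide as a block, -1.58 and -1.74 (adjusted p = 0.00219 and 0.00587). Without non-uniform spots they were -0.37 and -0.66 and did not pass (adjusted p = 0.347 and 0.109), in a fit where the median of all probes lay at 0.80 and 0.51. None of the spots of this probe was itself flagged, and both calls held when the percentile was taken from all spots.

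The second Rbl1 probe (NM_011249), flagged as non-uniform on 11 of the 12 arrays, showed the fall with a greater size. It gave 1796, 1468 and 1433 at proliferation, 818, 1565 and 1319 at day 2, 350, 217 and 379 at day 5, and 423, 450 and 309 at day 8. No late array overlapped an earlier one. The differences were -2.35 ± 0.28 at day 5, or 5.08-fold lower, and -2.0 ± 0.28 at day 8, or 4.01-fold lower (adjusted p = 4.58e-05 and 0.000127). On both probes day 2 replicate 1, which shared a slide with the proliferation arrays, was the lowest day 2 array.

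Rbl2 encodes p130, the pocket protein that is known to lead E2F repression in resting cells. Its signals were 3333, 2223 and 2092 at proliferation, 2374, 3057 and 2336 at day 2, 3801, 3605 and 2348 at day 5, and 5227, 4896 and 3727 at day 8. Only day 8 lay wholly above proliferation, and it overlapped day 5. Rbl2 rose at day 8 by 0.87 ± 0.24, or 1.83-fold (adjusted p = 0.0104), with a 95% interval from 0.34 to 1.41. With slide as a block the value was 1.36 and did not pass (adjusted p = 0.103). At days 2 and 5 the differences were 0.04 and 0.35 (adjusted p = 0.909 and 0.258).

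The 250 bases before the RefSeq starts of Rbl1 (minus strand) and Rbl2 (plus strand) are shown because these related genes moved in opposite directions. Capitals mark an E2F word (any of TTTGGCGC, TTTCCCGC, TTTGCCGC or TTTCGCGC on either strand) in Rbl1, and the CHR word TTTGAA, on either strand, in Rbl2. The CHR is an element known from genes repressed by the DREAM complex, to which p107 and p130 belong.
Rbl1, chr2:157204535-157204784: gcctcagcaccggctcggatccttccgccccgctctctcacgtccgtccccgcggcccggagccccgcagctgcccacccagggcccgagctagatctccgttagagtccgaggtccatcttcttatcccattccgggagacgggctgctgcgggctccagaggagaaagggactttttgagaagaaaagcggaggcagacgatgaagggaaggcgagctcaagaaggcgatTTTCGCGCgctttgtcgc
Rbl2, chr8:91069807-91070056: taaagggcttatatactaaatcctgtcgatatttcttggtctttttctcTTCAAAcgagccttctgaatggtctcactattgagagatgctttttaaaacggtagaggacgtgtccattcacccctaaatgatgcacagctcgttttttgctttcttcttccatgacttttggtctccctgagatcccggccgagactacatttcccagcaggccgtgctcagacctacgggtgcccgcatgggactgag
The E2F word of Rbl1 begins 18 bases before the start, and 1.86% of the 32851 promoter windows hold such a word. Of the 7 genes described here with a promoter in the table, Rbl1 alone holds one. Of the 17 replication genes listed further on that matched, 6 hold one, namely Cdc6, Mcm5, Mcm6, Mcm7, Orc1 and Pola1. The CHR word of Rbl2 begins 201 bases before its start, and 16% of all windows hold it. No entry was matched for Cdkn1c or Rb1.

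Gadd45a encodes a stress and growth arrest protein that binds PCNA and p21. Its signals were 10872, 10670 and 9480 at proliferation, 17665, 18921 and 19038 at day 2, 27311, 29913 and 26980 at day 5, and 44345, 44983 and 41131 at day 8. No 2 stages overlapped. The spot was flagged as non-uniform on all 12 arrays, so the fit without such spots could not include this gene. Gadd45a rose by 0.84 ± 0.11 at day 2, 1.44 ± 0.11 at day 5 and 2.07 ± 0.11 at day 8 (adjusted p = 0.000431, 2e-06 and 1.09e-07), the last a 4.21-fold difference. All 3 held with slide as a block, with 2.05 at day 8 (adjusted p = 0.00164). It rose again from day 2 to day 5, by 0.60 ± 0.11 (adjusted p = 0.00208), and from day 5 to day 8, by 0.63 ± 0.11 (adjusted p = 0.00712; 0.69 and 0.0677 with the block).

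**Figure D2:**
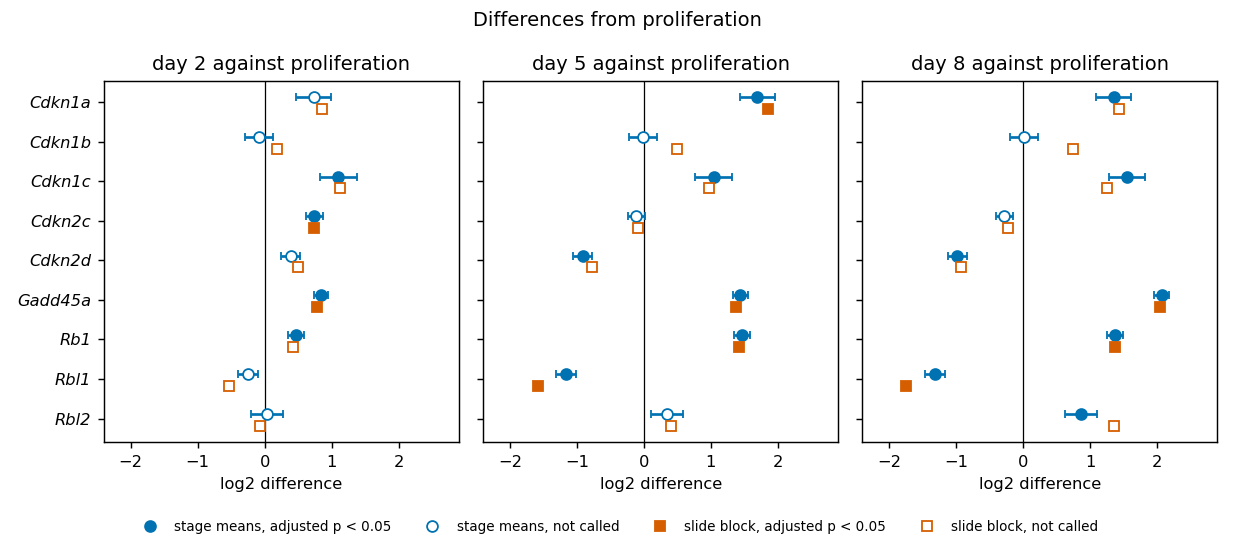
Log2 difference of each gene from proliferation at day 2, day 5 and day 8, with the brighter probe for genes on 2. Circles with bars are stage means with their standard errors, squares are the same difference with slide as a block, and filled symbols passed an adjusted p of 0.05. Gadd45a is filled by both in each panel, Rb1 and Rbl1 at day 5 and day 8, Cdkn1a at day 5 and Cdkn2c at day 2.

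Between neighbouring stages of differentiation, 3 of the 9 genes rose from day 2 to day 5 (Cdkn1a, Rb1, Gadd45a) and 3 fell (Cdkn2c, Cdkn2d, Rbl1), beside 30.1% of all probes called (14.3% higher, 15.7% lower). Of these 6, Cdkn1a was lost with slide as a block (0.99, adjusted p = 0.0674) and the other 5 held. In the fit with the block 2466 of the 22960 probes were called higher and 2614 lower. On slide 2, which held both stages, the differences were 0.99 for Rb1, 0.59 for Gadd45a, -0.83 for Cdkn2c, -1.28 for Cdkn2d and -1.06 for Rbl1. These lay within 0.15 of the values over all arrays, which include the slide 2 arrays, so the closeness is no separate check. The second Rbl1 probe gave -2.38 on slide 2 and -1.96 over all arrays. From day 5 to day 8, 1 gene of 9 was called, Gadd45a, beside 12.7% of all probes (5.88% higher, 6.84% lower), a share near the background.

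Ratios within an array do not depend on how the arrays are scaled, and show only that a pair of genes changed unequally. The pairs were chosen after the values had been seen and are given as a description; an exact permutation test of 3 against 3 arrays cannot give a p below 0.1. The log2 ratio of Rb1 to Rbl1 was higher than at proliferation by 0.72 at day 2, 2.63 at day 5 and 2.68 at day 8, where its SD over the 3 arrays was 0.02. The ratio of Rbl2 to Rbl1 was higher by 0.29, 1.51 and 2.19, so the increase continued to day 8. The ratio of Cdkn1a to Cdkn1b was higher by 0.81, 1.71 and 1.34, and that of Cdkn2c to Cdkn2d by 0.35, 0.80 and 0.70. At day 2 the ranges of Rbl2 to Rbl1 and of Cdkn1a to Cdkn1b overlapped those at proliferation. At day 5 and day 8 none of the 4 ratios overlapped proliferation.

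**Figure D3:**
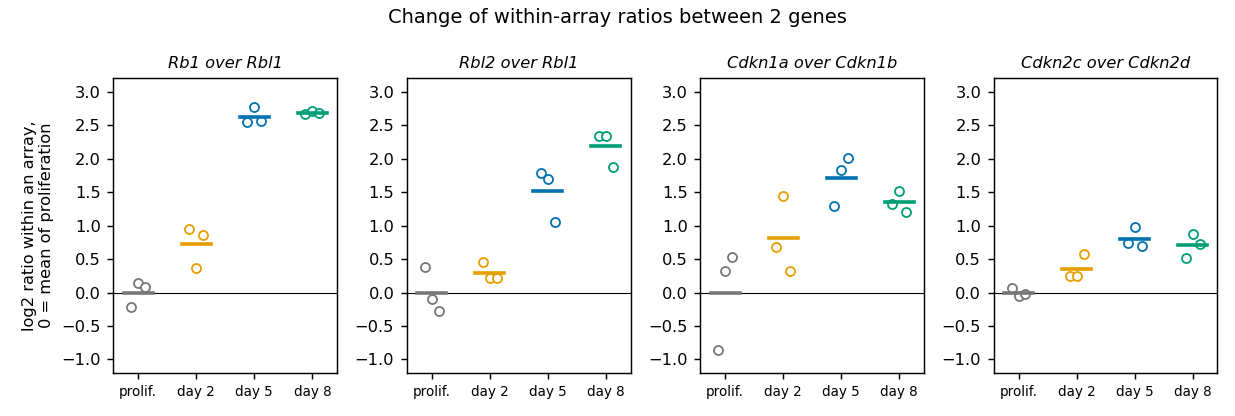
Change of the log2 ratio between 2 genes on the same array, with 0 at the mean of proliferation. Circles are single arrays and bars stage means (n = 3). Rb1 over Rbl1 gains most, 2.63 by day 5 and 2.68 at day 8, and Rbl2 over Rbl1 goes on from 1.51 to 2.19.

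Most of the listed CDK, cyclin and Cdc25 genes fell by day 8. Of 16 listed CDK, cyclin and Cdc25 genes, none rose and 5 fell at day 2, 2 rose and 12 fell at day 5, and 2 rose and 14 fell at day 8, with a median of -1.75 at day 8 against -0.12 over all probes. The largest differences at day 8 were those of the mitotic cyclins Ccna2, at -3.50 ± 0.18, and Ccnb1, at -3.48 ± 0.15. The 2 that rose were Ccnd3, the D-type cyclin known to stay high in myotubes, at 0.86 ± 0.25, and Cdk7, the CDK-activating kinase, at 1.08 ± 0.23. The 16 called at day 8 are 100% of the list, beside 54.9% of all probes. In the fit with slide as a block 3 fell and none rose at day 2, and 11 fell and none rose at day 8. The lists in this and the next 3 paragraphs were chosen with earlier results of these data known and are described by counts only.

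Most of the listed E2F and DREAM complex genes and E2F-driven replication genes also fell by day 8. Of 17 E2F and DREAM complex genes 2 rose and 12 fell at day 8 (82.4% called, median -1.0), led by Mybl2 at -3.79 ± 0.14, a subunit of the activating form of the complex, and E2f7 at -3.38 ± 0.21, an E2F repressor. The block left 7 that fell and none that rose. Of 20 E2F-driven replication genes none rose and 5 fell at day 2, 19 fell at day 5 and 19 fell at day 8, with a median of -0.33, -2.0 and -2.63. The largest falls at day 8 were those of Mcm3, a helicase subunit, at -4.96 ± 0.29, and Tk1, thymidine kinase, at -4.35 ± 0.18. The called share was 25%, 95% and 95%, beside 30.6%, 47.5% and 54.9% of all probes. With slide as a block 1 fell at day 2, 19 at day 5 and 19 at day 8. From day 2 to day 5, when Rb1 rose and Rbl1 fell, 19 of these 20 genes fell, with a median of -1.54. Of all probes 30.1% were called in this comparison, 15.7% as lower, and the median was -0.09. A link between these falls and the changes of Rb1 and Rbl1 was not tested.

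Other targets of p53, and genes known to act on the Cip/Kip inhibitors, showed mixed directions. Of 16 measured p53 targets other than Cdkn1a and Gadd45a, from a list of 19, 5 rose and 6 fell at day 8 (68.8% called, median -0.10), with Fas, a death receptor, at 2.09 ± 0.25 and Ccng1, cyclin G1, at -1.26 ± 0.33. The block left 2 of the 16 that fell and none that rose. Of 12 measured upstream factors of the Cip/Kip genes 6 rose and 2 fell at day 2 (66.7% called, beside 30.6% of all probes), and 4 rose and 2 fell at day 8 (50%, beside 54.9%). Egr1, an immediate early factor, was at 2.13 ± 0.45 and Myc, a repressor of Cdkn1a, at -2.33 ± 0.22 at day 8. The fit with the block called 2 as risen and 1 as fallen at both stages. Of 13 ubiquitin ligase genes that degrade CDK inhibitors 2 rose and 5 fell at day 8 (53.8% called, beside 54.9% of all probes, a share near the background), led by Skp1, at -3.18 ± 0.36, and Cks1b, at -2.59 ± 0.15, both of the SCF complex that targets p27. With the block 5 fell and none rose.

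Other growth arrest genes went in both directions. Of 9 measured ones from a list of 12, 3 rose and 2 fell at day 8 (55.6% called, near the 54.9% of all probes; median 0.29), with Gas1, a membrane protein of arrested cells, at 1.38 ± 0.20 and Btg3, an antiproliferative factor, at -0.65 ± 0.23. The fit with the block called 1 as risen and none as fallen. Of 7 measured neighbours of Cdkn1c in its imprinted region, from a list of 10, 3 rose and none fell at day 8 (42.9% called, below the 54.9% of all probes), and the block also gave 3 that rose. Igf2, a growth factor, was at 4.54 ± 0.29 and Slc22a18, a transporter, at 2.22 ± 0.13, while the median of the 7 was -0.06.

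**Figure D4:**
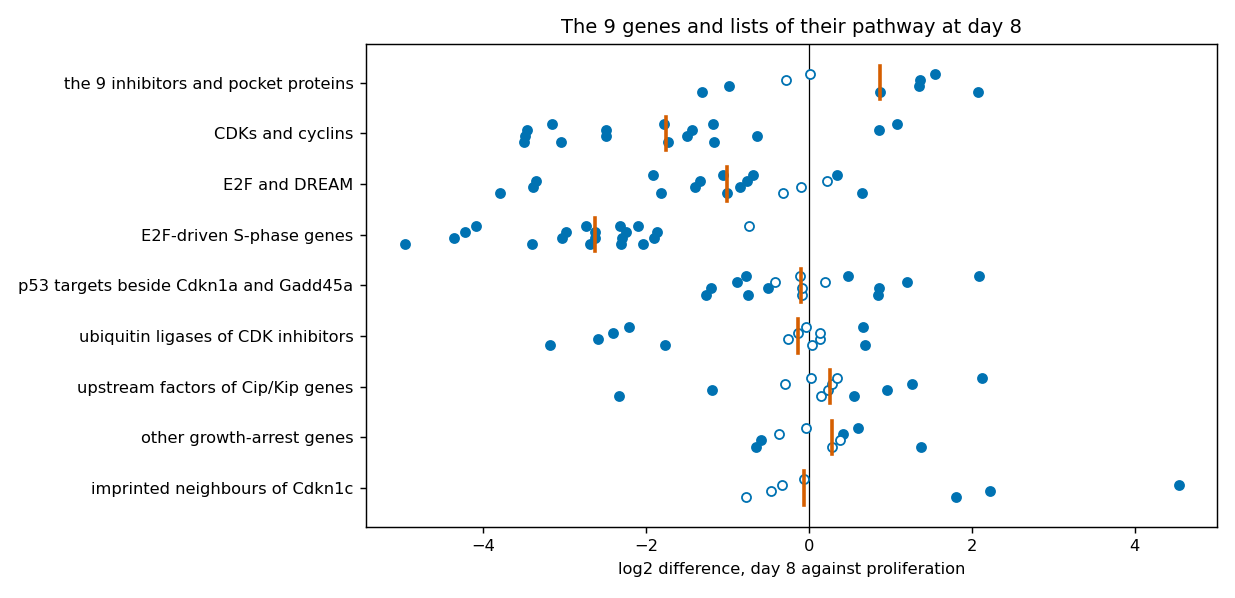
Log2 difference of day 8 from proliferation for the 9 genes and for 8 lists of their pathway. Each circle is a gene, filled where it passed an adjusted p of 0.05, and vertical bars are list medians. The median lies at 0.87 for the 9 genes, -1.75 for CDKs and cyclins and -2.63 for E2F-driven replication genes.

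The 9 profiles were also compared with each other and with the 13741 other tested genes by Pearson r over the 12 arrays, which share 4 stages and 3 slides; the values are descriptions. Among the 9, Rb1 was most like Cdkn1a (r = 0.93) and Gadd45a (0.92) and most opposed to Rbl1 (-0.95), and Cdkn2d was most like Rbl1 (0.88) and Cdkn2c (0.84). Cdkn1b had no r beyond 0.22 in size with any other of the 9. Across all genes the closest to Rb1 were Chrnd (0.995) and Tbc1d1 (0.993), and the closest to Rbl1 were Skp2 (0.991) and Ddias (0.984). Gadd45a was closest to Fam167a (0.994) and Col3a1 (0.992), and Cdkn2d to Khdrbs3 (0.990) and H3c11 (0.989). Cdkn1a was closest to Pigp (0.973) and Insyn1 (0.970), and Cdkn2c to BC049762 (0.972) and Ifitm1 (0.967). Rbl2 was closest to Dnajc18 (0.960) and Eml6 (0.949), and Cdkn1c to Hps5 (0.959) and Lysmd4 (0.958).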

How the data were processed

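Each deposited file is the output of Agilent Feature Extraction 10.5.1.1 for 1 array, per the submitters' processing notes, and gives a processed green intensity for every spot, per the file headers. The headers name no scaling of one array to another. The intensity was converted here to log2 and each array's 75th percentile subtracted. The log2 values were not taken from the deposited files. Spots marked as population outliers were left out and non-uniform spots kept. Of 39448 spots, 37831 of 37246 probes were used, without controls.

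Probes entered the test if 1 stage or more had all 3 arrays flagged well above background. limma 3.58.1 in R 4.3.3 (lmFit, eBayes) fitted 4 stage means over 12 arrays, with Benjamini-Hochberg adjustment. The tested probe of highest mean stood for a gene; other listed genes were named by the size of their day 8 difference (2 per list, beside Myog and Myh3). The script was tested on simulated data. The labels do not say how separate the cultures of an experiment were, so p-values reflect variation among these arrays alone, and the number of arrays limits precision.

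The genes and lists were chosen with earlier results of these data known. Symbols and promoter sequences came from RefSeq tables of GRCm38.p6; the array header names mm9 and no array coordinates are given. Alternatives were normexp (offset 50), quantile normalization, another percentile, no filter, slide and replicate blocks, non-uniform spots left out, the median of a gene's probes, and leaving out each array. The mean signal column planned for normexp was replaced by the median signal column. Each slide had 1 scan time, so no separate scan block was run. Same-numbered arrays of different stages deviated from their stage means with r from -0.16 to 0.24 over 18 pairs, so the numbers were not taken to pair them. The genes closest in profile to Cdkn1b are not reported here. Figures were drawn with matplotlib 3.10.9.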

Additional observations from a re-analysis of the deposited data

How the results depend on the processing

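Of 895 alternative values of the 45 differences of the 9 genes, 867 kept their side of the threshold, 18 lost the call and 10 gained it. No called difference changed sign; 30 values of 12 uncalled differences did, 17 of them for Cdkn1b. With slide as a block, which leaves fewer arrays per contrast within a slide, the genes called numbered 2 at day 2, 3 at day 8 and 5 by the F test, and 0 from day 5 to day 8. In that last comparison the fit called 436 of the 22960 probes higher and 301 lower. From day 5 to day 8, 2 genes, Rbl2 and Gadd45a, had an unadjusted p under 0.05 in that limma fit. Spots flagged as non-uniform made up 10 to 12 of the 12 arrays' spots for Cdkn1a, Cdkn1b, Cdkn2d, Rbl2 and Gadd45a. They made up 11 of 12 for the second Rbl1 probe. Leaving such spots out therefore left 4 genes to test, with Rbl1 on its brighter probe. It gave 2 calls at day 5, 2 at day 8, 1 from day 2 to day 5, 0 from day 5 to day 8 (also 0 at an unadjusted p under 0.05 in limma) and 3 by the F test. Beside these, 5601 of the 13424 probes tested were called higher and 724 lower at day 5, and 4595 and 1165 at day 8. The numbers were 1253 and 829 from day 2 to day 5, and 70 and 210 from day 5 to day 8. Leaving these spots out moved the median of all probes to 0.73, 0.80 and 0.51 at days 2, 5 and 8. In that fit Rbl1, at -0.37 and -0.66 at days 5 and 8, lost its calls (adjusted p = 0.347 and 0.109), although none of the spots of its brighter probe was flagged. With the percentile taken from all spots, an alternative chosen after seeing the data, the counts were 2 at day 2, 3 at day 5, 3 at day 8, 3 from day 2 to day 5, 0 from day 5 to day 8 (0 unadjusted) and 4 by the F test. There 2145 of the 13424 probes were called higher and 1027 lower at day 2. At day 5 the numbers were 2882 and 2513, and at day 8 they were 3188 and 3466. From day 2 to day 5 they were 1624 and 1827, and from day 5 to day 8 they were 639 and 633. Leaving out 1 array at a time gave 4 to 5, 6, 7 to 8, 5 to 6, 1 to 2 and 7 to 8 calls in the same order. The second call from day 5 to day 8 was Cdkn1c without proliferation replicate 1 (0.51, adjusted p = 0.0499). In these fits, of 22972 to 25103 probes, 3110 to 4367 were called higher and 2035 to 2820 lower at day 2. The ranges were 4835 to 5719 and 4638 to 5516 at day 5, and 5068 to 5766 and 5988 to 7556 at day 8. From day 2 to day 5 they were 2652 to 3420 and 2855 to 3757. From day 5 to day 8 they were 579 to 1477 and 554 to 2782. The replicate block gave 4, 6, 7, 6, 1 and 8 calls, the same counts as without it. With that block 3993 of the 22960 probes were called higher and 2776 lower at day 2. The numbers were 5375 and 5448 at day 5, and 5694 and 6780 at day 8. From day 2 to day 5 they were 3214 and 3456, and from day 5 to day 8 they were 1157 and 1326. No count over all probes is given for the F test in the alternative fits. Cdkn1a at day 2 also passed with normexp (adjusted p = 0.0154), quantile normalization (0.0445), the median of its probes (0.0253) and without proliferation replicate 3 (0.0223), day 2 replicate 3 (0.0361) or day 5 replicate 1 (0.0443). Among all called probes the share that was higher at days 2, 5 and 8 was 59.9%, 49.8% and 46.1%; it was 73%, 60.2% and 60.5% with normexp, whose median over all probes was 0.20, 0.14 and 0.15, and 96.3%, 88.6% and 79.8% without non-uniform spots. Of 1575 alternative counts over the gene lists, 1281 stayed within 1.5 times the reported count. The cause of these changes was not tested.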
